A study of Mus musculus with 9 samples.

Results

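The genes described here form the stretch of mouse chromosome 8 that starts with Insr, the gene of the insulin receptor, and ends with Galnt7, an enzyme that builds O-linked sugar chains in the Golgi. The order was taken from the RefSeq gene table of assembly GRCm38.p6, which holds 883 genes from Insr to Galnt7, of which 361 are protein coding. A gene is a member where a probe set on the array carries its symbol and no other. Of the 883, 313 were measured, 293 of them protein coding, out of 961 measured genes on chromosome 8 and 19938 on the array. The stretch was selected on measured values: it was noticed because many of its genes were lower in lines from brain metastases. The brain comparisons of its members are therefore given as descriptions, and the counts of limma calls in them, set beside the share over all genes, support nothing. The test of members is that of lung against primary lines, which shares its primary lines with the brain comparison. No gene of the array lay before Insr on the chromosome, so the stretch begins at its measured end, and the other 648 measured genes follow Galnt7.

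RNA was measured in cultured lines of 4T1, a mammary carcinoma of the mouse that spreads to distant organs, on 1 Affymetrix array per line. The 3 primary lines (4T1-T2) came from tumors at the primary site, the 3 lung lines (4T1-LM2) from lung metastases and the 3 brain lines (4T1-BM2) from brain metastases, each from its own mouse and numbered by that mouse. All 9 were thawed together, grown side by side and extracted together, and the labels name no drug or gene change for any origin. The measurements are thus of cells in a dish, not of tumors. Lines of an origin carry a common name and the labels do not say whether they share a selected ancestor, in which case the 3 would count as fewer independent samples.

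Neighbours on a chromosome usually have unrelated jobs, and the members are of many kinds. The stretch holds growth factor and insulin signalling genes, the paired genes of the main type IV collagen chains, chromatin and DNA repair enzymes, mitochondrial and lysosomal proteins, and tandem families such as the defensins, small antimicrobial peptides made mainly in gut and epididymis. Type IV collagen is the sheet-forming collagen of basement membranes, and its alpha 1 and alpha 2 chains are read in opposite directions from a shared promoter. RNA from cells was measured, and the DNA of the lines was not analysed here.

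The promoters of 4 members are shown: the collagen pair, because their windows overlap and the genes were lower in brain lines by nearly the same amount, Ctxn1, which had the largest decrease, and Vegfc, which had the largest increase. Each is the RefSeq window of assembly GRCm38.p6 from 250 bases before to 50 after the start of the gene, written 5′ to 3′ on the strand of the gene. Capitals mark the letters GGGCGG (GC box) and CCAAT, on either strand. The positions are chr8:11312777-11313076 on the minus strand for Col4a1, chr8:11312555-11312854 on the plus strand for Col4a2, chr8:4259225-4259524 on the minus strand for Ctxn1 and chr8:54077282-54077581 on the plus strand for Vegfc.
Col4a1: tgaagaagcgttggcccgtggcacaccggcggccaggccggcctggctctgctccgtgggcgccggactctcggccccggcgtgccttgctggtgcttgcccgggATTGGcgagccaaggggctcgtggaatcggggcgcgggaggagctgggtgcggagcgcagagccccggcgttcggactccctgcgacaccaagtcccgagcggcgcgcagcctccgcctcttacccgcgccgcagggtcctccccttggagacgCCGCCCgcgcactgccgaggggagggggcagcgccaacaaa
Col4a2: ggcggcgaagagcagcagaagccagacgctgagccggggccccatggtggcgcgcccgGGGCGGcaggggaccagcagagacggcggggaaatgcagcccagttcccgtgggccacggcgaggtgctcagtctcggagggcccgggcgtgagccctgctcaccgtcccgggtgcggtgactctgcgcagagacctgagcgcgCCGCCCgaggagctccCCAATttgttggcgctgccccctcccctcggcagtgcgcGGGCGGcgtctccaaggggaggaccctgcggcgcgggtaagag
Ctxn1: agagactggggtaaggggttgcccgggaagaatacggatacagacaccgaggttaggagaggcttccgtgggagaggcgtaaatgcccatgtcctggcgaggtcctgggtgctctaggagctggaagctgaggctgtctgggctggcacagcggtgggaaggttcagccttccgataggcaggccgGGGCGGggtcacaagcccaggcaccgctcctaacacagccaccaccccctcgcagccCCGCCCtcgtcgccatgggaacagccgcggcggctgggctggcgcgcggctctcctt
Vegfc: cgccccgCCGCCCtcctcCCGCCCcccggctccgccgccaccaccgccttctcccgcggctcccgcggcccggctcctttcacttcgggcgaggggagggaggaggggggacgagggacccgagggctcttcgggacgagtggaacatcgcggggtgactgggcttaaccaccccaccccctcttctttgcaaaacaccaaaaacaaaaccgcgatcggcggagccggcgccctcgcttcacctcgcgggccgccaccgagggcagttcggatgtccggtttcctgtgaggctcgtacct
The Col4a1 and Col4a2 windows share 78 bases, read from opposite strands, so a match in those bases is counted in both. Col4a1 held 1 GC box and 1 CCAAT, Col4a2 held 3 and 1, and Ctxn1 and Vegfc held 2 GC boxes each and no CCAAT. The letters TATAAA were in none of the 4.

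Promoter windows were given for 155 of the 313 members, 201 windows in all. GGGCGG stood in 40.8% of them and in 35.7% of the 32851 windows of all genes, CCAAT in 44.3% against 37.4%, and TATAAA in 13.9% against 13.6%. Among members the share with GGGCGG was 56.2% over 128 windows of genes above the background level and 13.7% over 73 windows of genes at or below it. The windows of other genes were not split by level, so this difference is not shown to be particular to the stretch. These shares describe the letters of the windows, and a match is not a bound site.

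Levels are log2 intensities, so a change of 1 is a doubling. The level below which a probe set may lie at background was set at 4.18, the median of the probe sets with no gene symbol, and 214 members had a mean over the 9 lines above it and 99 did not. Array medians lay between 5.06 and 5.19. Brain line 3 and lung line 1 had the widest spread around the gene medians, with interquartile ranges of 0.178 and 0.164 against 0.0886 to 0.126 in the other 7 lines. All 8 epithelial markers were above background, with Krt8 and Krt18, keratins of simple epithelium, at mean levels of 12.87 and 12.59 in primary lines. Of the 8, 3 were called higher in brain than in primary lines, beside 1.56% of all genes. These were Krt14, Cldn3 and Cdh1 (limma, Benjamini-Hochberg adjusted p of 0.0057, 0.0205 and 0.0386). Cdh1 lies in the rest of chromosome 8. Of 8 fibroblast markers 4 were above background, and Dcn, Lum, Fap and Postn were not. The mean over the 8 was 4.73 to 4.83 in brain lines, 4.74 to 4.87 in lung lines and 4.82 to 5.03 in primary lines, and none was called between brain and primary lines. The part that this small difference has in the values below was not tested, and in a bulk sample fewer cells of a kind and less RNA per cell cannot be told apart. Leukocyte, endothelial, neural and alveolar marker lists had mean levels between 4.38 and 4.78 in every line, and no gene of them was called in that comparison. Of these markers 3 of 8 leukocyte, 4 of 8 endothelial, 8 of 11 neural and 6 of 8 alveolar ones were above the background level. A mean above that level therefore does not by itself show that a gene is expressed.

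Members as a group were lower in brain lines, and the more so the brighter the gene. Over the 151 members with a mean level of 6 or more, the median change from primary to brain lines was -0.28 (quartiles -0.43 and -0.12), which is 1.21-fold lower, and 136 of the 151 were below 0. The same median was -0.07 over the 395 such genes of the rest of chromosome 8 and 0.01 over 9524 genes of the array. Below 0 were 63.0% of the former genes and 47.2% of the latter. The median was -0.33 over the 88 members at 8 or more, with 83 below 0 (42.1% of all genes at that level). It was -0.18 over the 63 members between 6 and 8, with 53 below 0. Among the 63 members between background and 6 it was -0.01, and among the 99 at or below background it was 0.00. The median over all 313 members was accordingly small, at -0.06, against -0.03 over the rest of chromosome 8 and 0.00 over all genes. With every array centred on its median, the median of all 313 became 0.00 and the median at levels of 6 or more -0.21, against -0.00 in the rest of the chromosome. These tiers were set after the values had been seen, and a level also depends on the probes of its probe set.

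**Figure D1:**
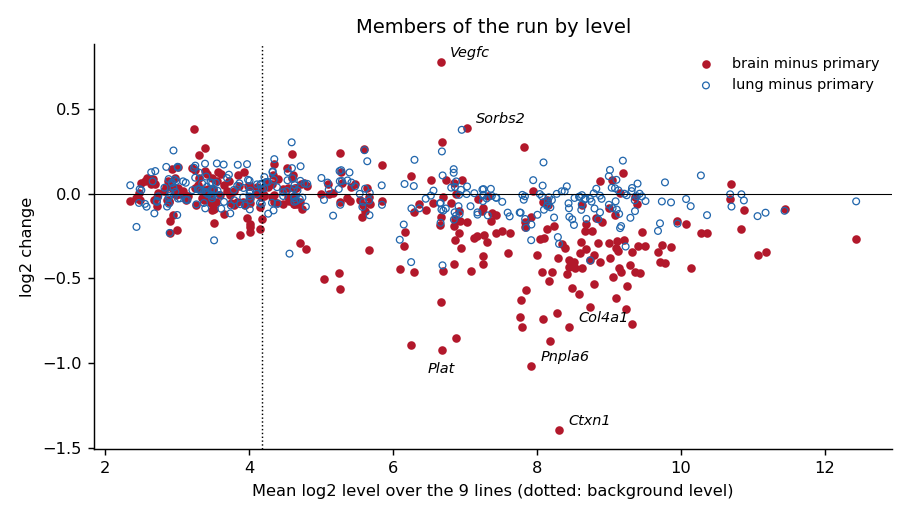
Log2 change of each of the 313 members (vertical axis) against its mean log2 level over the 9 lines (horizontal axis), for brain minus primary lines (filled) and lung minus primary lines (open), with the background level of 4.18 dotted. Brain changes spread downwards above a level of about 6, to -1.39 in Ctxn1, while lung changes lie between -0.42 and 0.38 at every level.

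Each of the 3 brain lines showed the difference. Relative to the primary mean, the median over the 151 members at 6 or more was -0.30, -0.26 and -0.22 in brain lines 1, 2 and 3. It was -0.09, -0.01 and -0.04 in the lung lines and -0.02, 0.04 and -0.01 in the primary lines. The brain lines lay below the other 6 lines with no overlap. Over the rest of chromosome 8 the brain lines were at -0.08, -0.05 and -0.04 and lung line 1, at -0.06, lay among them. Over all genes at 6 or more, lung line 1 was at -0.05 and the brain lines at -0.01, 0.03 and 0.02. Of the 151 members, 143, 129 and 127 were below their primary mean in brain lines 1, 2 and 3. Of all genes at 6 or more, 51.6%, 43.4% and 46.6% were. Without brain line 3, whose array had the widest spread, the median change was -0.30.

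**Figure D2:**
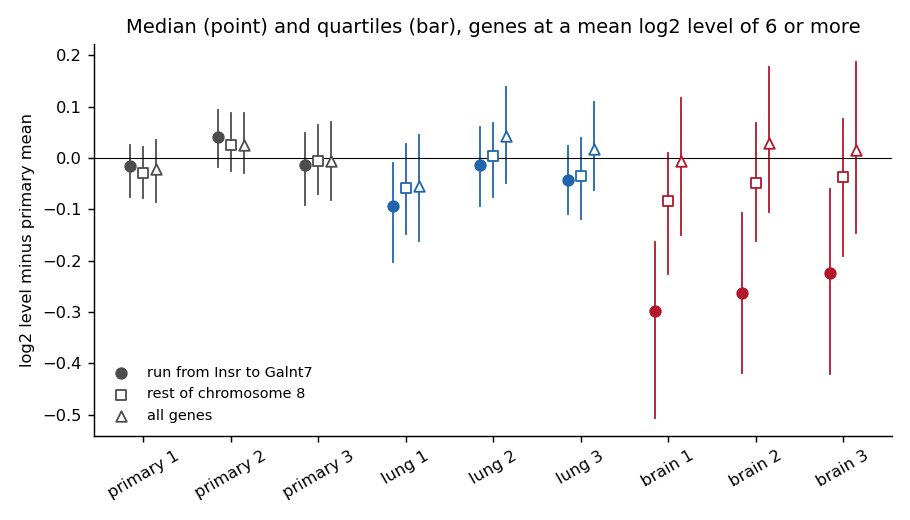
Median (symbol) and quartiles (bar) of the log2 level minus the primary mean in each of the 9 lines, over genes with a mean level of 6 or more: 151 members, 395 genes of the rest of chromosome 8 and 9524 genes of the array. The filled circles of the brain lines sit at -0.30 to -0.22, below every other symbol.

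Counted by gene, 98 of the 313 members (31.3%) had all 3 brain lines below all 3 primary lines, beside 8.47% of all genes. In 95 (30.4%) the brain lines lay below all lung lines, beside 8.63% of all genes, and in 80 (25.6%) below all 6 other lines, beside 5.05%. The brain lines lay above all primary lines in 8 members (2.56%, beside 9.36% of all genes), 4 of them above background: Vegfc, Gm8096, Nkx6-3 and Cldn23. By limma at an adjusted p under 0.05 over all genes, 45 members were called lower in brain than primary lines (14.4%, beside 1.57% of all genes) and 0 higher (beside 1.56%). Against lung lines 27 were called lower (8.63% of members, beside 1.07% of all genes) and 0 higher (beside 0.913%). Because the stretch was picked on these contrasts, nothing is read from the counts. The 45 became 24 without brain line 1, 24 without brain line 2, and 17, 15 and 25 without primary lines 1, 2 and 3. The 27 became 13 without brain line 1, 11 without brain line 2 and 17 without brain line 3. It became 8 when lung line 1 was left out, 5 for lung line 2, 7 for lung line 3 and 16 for primary line 1.

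Along the chromosome the lower values were spread over most of the stretch, while the median was close to 0 at its Galnt7 end. In blocks of 52 members in order, the medians over genes at 6 or more were -0.29 from Insr to Ing1, -0.27 from Ankrd10 to Defb39, -0.35 from Defb34 to Zmat4, -0.31 from Tcim to Wrn, -0.29 from Purg to Adam26a and -0.16 from Adam34l to Galnt7. The 12 blocks of the rest of the chromosome had medians from -0.11 to -0.01. Within the sixth block the change of level lay between Dctd and Aga. The 204 members above background from Insr to Dctd had a median of -0.19 with 165 below 0, while the 10 from Aga to Galnt7 had a median of -0.01 with 5 below 0. Of all genes above background 49.3% were below 0. In 97 of the 204 and 1 of the 10 the brain lines lay below all primary lines (10.9% of all genes above background). The border between Dctd and Aga was placed after the values had been seen.

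Just inside the named end, Sap30, a subunit of a histone deacetylase complex, differed between brain and primary lines by 0.08, Hmgb2, a DNA-bending chromatin protein, by -0.09 and Galnt7 by 0.12. Just outside it, BC030500 differed by -0.07, and Galntl6 and Aadat were below background in every origin, with mean levels of 3.83 to 3.93 and 2.97 to 3.06. The differences measured on both sides of the named end all lay within 0.12 of 0. At the other end Insr, Arhgef18 and Pex11g differed by -0.56, -0.16 and -0.14. Over genes above background, the median of whole chromosomes ran from -0.09 for chromosome 13 to 0.10 for chromosome 3, with -0.07 for chromosome 8.

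**Figure D3:**
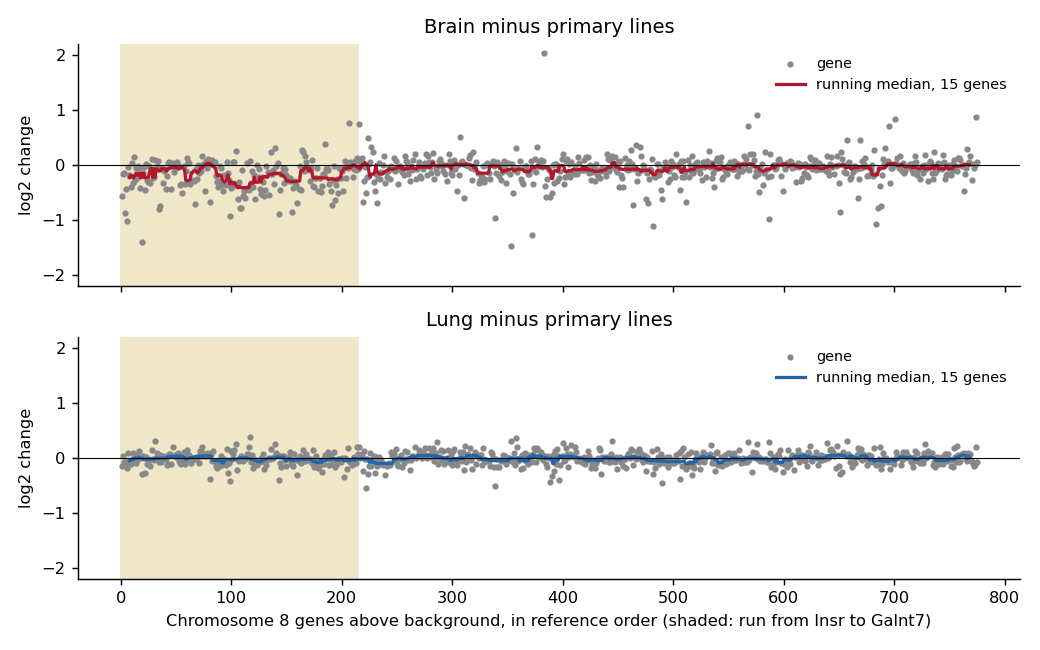
Log2 change of the 775 genes of chromosome 8 above background in reference order (horizontal axis), for brain minus primary lines (upper) and lung minus primary lines (lower), with a running median of 15 genes and the stretch from Insr to Galnt7 shaded. The running median of the brain comparison runs from -0.41 near Gins4 to 0.03 within the shaded stretch and lies between -0.24 and 0.05 in the rest.

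The largest decreases were in genes of several kinds. Ctxn1, a small membrane protein of neurons, had levels of 8.53, 8.78 and 9.30 in primary lines 1, 2 and 3, of 8.52, 8.66 and 8.54 in lung lines and of 7.23, 7.39 and 7.80 in brain lines. Its brain lines lay below the other 6 with no overlap, and the mean difference from primary lines was -1.39 ± 0.19 (standard error of the model, n = 3 lines per origin), which is 2.63-fold. Pnpla6, a lysophospholipase of the endoplasmic reticulum, had primary levels of 8.40, 8.66 and 7.90, lung levels of 8.21, 8.16 and 8.05 and brain levels of 7.17, 7.15 and 7.59. These did not overlap either, with a difference of -1.02 ± 0.18. Zfp358, a zinc finger gene, went from a primary mean of 8.50 ± 0.31 (SD) to a brain mean of 7.63 ± 0.09 and Tcim, a regulator of Wnt signalling, from 9.56 ± 0.09 to 8.79 ± 0.33. In both, the lung mean stayed near the primary one, at 8.42 and 9.60.

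In other members with large differences the lines of an origin were spread more widely. Plat, tissue plasminogen activator, had primary levels of 7.33, 7.32 and 6.75, lung levels of 6.38, 6.68 and 7.07 and brain levels of 6.39, 6.44 and 5.81, so that brain and lung lines overlapped. Sfrp1, a secreted Wnt antagonist, had brain levels of 7.72, 7.69 and 6.41 against primary levels of 7.81, 8.06 and 8.30, and brain line 3 stood apart. In Rbpms, an RNA-binding protein, brain line 1 stood apart, with brain levels of 5.38, 6.88 and 6.78 against primary levels of 6.76, 7.02 and 7.82. Rnf122, a ubiquitin ligase, was highest in primary line 3, with primary levels of 6.25, 6.45 and 7.34 and brain levels of 5.75, 5.65 and 5.98. The brain and primary lines of Rbpms overlapped and those of Plat, Sfrp1 and Rnf122 did not.

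The type IV collagen pair was lower in every brain line. Col4a1 had levels of 8.81, 8.82 and 8.58 in primary lines, 8.69, 8.67 and 8.59 in lung lines and 7.96, 7.97 and 7.91 in brain lines. Col4a2 had 8.43, 8.39 and 8.10 in primary lines, 8.36, 8.39 and 8.31 in lung lines and 7.63, 7.63 and 7.44 in brain lines. In neither gene did the brain lines overlap any other line, and the differences from primary lines were -0.79 ± 0.08 and -0.74 ± 0.10, or 1.73-fold and 1.67-fold lower. Against lung lines they were -0.70 ± 0.08 and -0.79 ± 0.10. The 23 measured basement membrane genes on other chromosomes were not lower as a group: their median was -0.02, 14 were below 0, and by limma 0 were called lower (1.57% of all genes) and 3 higher (1.56% of all genes) in brain lines. The 3 were the laminin 332 chains Lamb3, at 1.56 ± 0.31 (adjusted p = 0.0292), and Lama3, at 1.12 ± 0.25 (adjusted p = 0.0420), and the collagen prolyl hydroxylase P4ha2, at 0.66 ± 0.15 (adjusted p = 0.0494). Sparc, a matrix protein that binds collagen IV, differed by -0.52 ± 0.17 and was not called (adjusted p = 0.166). The other type IV chains on the array, Col4a3, Col4a4, Col4a5 and Col4a6, differed by -0.00, -0.02, -0.14 and 0.03.

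Among matrix, secreted and adhesion members, the collagen pair included, 10 of the 15 above background were below 0, with a median of -0.06 against 0.00 over all genes above background. Of all genes above background 49.3% were below 0, which is the share to set beside the count of each list. In 7 the brain lines lay below all primary lines, as in 10.9% of all genes above background. Adam9, a membrane-bound metalloprotease, differed by -0.47 ± 0.10 and Fat1, a giant protocadherin, by -0.38 ± 0.08. The list also held the largest increase: Vegfc, the growth factor of lymphatic vessels, had levels of 6.33, 6.30 and 6.63 in primary lines, 6.14, 6.61 and 6.34 in lung lines and 6.89, 6.94 and 7.76 in brain lines. Its brain lines lay above all others, by 0.77 ± 0.22 over primary lines, and brain line 3 was the highest. Angpt2, a ligand of the vessel receptor Tie2, went the other way, at 5.22, 5.28 and 5.68 in primary lines and 5.07, 4.84 and 4.87 in brain lines, with no overlap. It was singled out after its values had been seen. Sorbs2, an adaptor at actin attachments, differed by 0.38 ± 0.33 and its origins overlapped.

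Of the receptor and signalling members all 17 were above background, with a median of -0.19 and 14 below 0, and in 9 the brain lines lay below all primary lines (10.9% of all genes above background). Insr had levels of 8.72, 8.69 and 8.76 in primary lines, 8.61, 8.52 and 8.59 in lung lines and 8.01, 8.03 and 8.47 in brain lines, and brain line 3 lay closest to the rest. Dusp4, a phosphatase that switches off MAP kinases, had 9.46, 9.57 and 9.65 in primary lines, 9.16, 9.37 and 9.21 in lung lines and 8.79, 9.09 and 8.76 in brain lines, so that the lung lines stood between the others. Eif4ebp1, which restrains translation under the control of mTOR, differed by -0.34 ± 0.10, Plekha2, an adaptor that binds membrane lipids, by -0.41 ± 0.08 and Ppp2cb, a catalytic subunit of protein phosphatase 2A, by -0.21 ± 0.07. Efnb2, a ligand of Eph receptors, was level across the origins, at means of 9.38, 9.34 and 9.36 in primary, lung and brain lines. Fgfr1, a fibroblast growth factor receptor noticed after its values had been seen, differed among lines of the same origin: its primary lines had 6.09, 6.17 and 8.16, its brain lines had a mean of 6.88 ± 0.75 (SD) with brain line 3 lowest at 6.02, and its lung lines had a mean of 7.18 ± 0.13.

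The lysosome, Golgi and membrane traffic members, all 21 of them above background, had a median of -0.31, the lowest of the 8 lists of members, with 18 below 0 and 15 with brain lines below all primary lines (10.9% of all genes above background). The list was bright, with mean levels of 8.53 to 8.63 in brain lines and 8.83 to 8.88 in primary lines. The 88 members at 8 or more had a median of -0.33, and the part of level in this rank was not tested. Lamp1, an abundant lysosomal membrane protein, had levels of 11.38, 11.46 and 11.14 in primary lines, 11.22, 11.23 and 11.18 in lung lines and 10.94, 11.07 and 10.94 in brain lines. Golga7, part of a Golgi palmitoyltransferase, differed by -0.31 ± 0.08, Leprotl1, a membrane protein of endosomes, by -0.30 ± 0.09 and the lysosomal ceramidase Asah1 by -0.23 ± 0.08. Spcs3, a subunit of the signal peptidase, differed by 0.05 ± 0.08. It lies close to Vegfc in the last block, as does Aga, a lysosomal enzyme of glycoprotein breakdown, at 0.00 ± 0.07. Erlin2 and Hgsnat, an endoplasmic reticulum membrane protein and a lysosomal acetyltransferase, were noticed after their values had been seen, at -0.54 ± 0.06 and -0.53 ± 0.10.

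Cell cycle, centrosome and cytoskeleton members numbered 12, all above background, with a median of -0.30, 11 below 0 and 8 with brain lines below all 6 others (6.68% of all genes above background). Pcm1, a scaffold of the granules around the centrosome, had a mean level of 9.39 ± 0.17 (SD) in primary lines, 9.19 ± 0.06 in lung lines and 8.92 ± 0.08 in brain lines, and all brain lines lay below the other lines. Tubgcp3, a subunit of the complex that nucleates microtubules, differed by -0.44 ± 0.09, Dctn6, a dynactin subunit, by -0.42 ± 0.09, Shcbp1 by -0.31 ± 0.08 and Cdc16, a subunit of the anaphase-promoting complex, by -0.28 ± 0.06. All 5 had brain means below both other origins.

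The 13 DNA replication and repair members, all above background, had a median of -0.23 with 12 below 0. Gins4, a subunit of the replicative helicase, had levels of 9.17, 9.38 and 9.38 in primary lines, 9.27, 9.22 and 9.30 in lung lines and 8.64, 8.77 and 8.68 in brain lines, and the brain lines overlapped neither origin. Eri1, an exonuclease for histone mRNA, differed by -0.46 ± 0.07, Xab2, a factor of splicing and transcription-coupled repair, by -0.40 ± 0.07 and Dctd, a deaminase of nucleotide synthesis, by -0.23 ± 0.09. Tfdp1, the partner of E2F factors, differed by -0.10 ± 0.08. The 21 chromatin, transcription and RNA members had a median of -0.23, with 20 below 0. Ash2l, a core subunit of histone H3K4 methyltransferases, had 10.29, 10.19 and 10.42 in primary lines, 10.08, 10.37 and 10.24 in lung lines and 9.77, 9.87 and 9.96 in brain lines. Cnot7, a deadenylase of mRNA decay, differed by -0.40 ± 0.07 and Mak16, a ribosome assembly factor, by -0.16 ± 0.08, while Elavl1, an mRNA-stabilising protein, was level at -0.03 ± 0.07.

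Of 15 mitochondrial and metabolic members measured, 12 were above background, with a median of -0.20 and 10 below 0. Slc25a4, the mitochondrial exchanger of ADP and ATP, had levels of 12.64, 12.55 and 12.42 in primary lines, 12.53, 12.52 and 12.41 in lung lines and 12.25, 12.26 and 12.30 in brain lines. Vdac3, a pore of the outer mitochondrial membrane, had 11.28, 11.15 and 11.25 in primary lines, 11.13, 11.12 and 11.03 in lung lines and 10.83, 10.88 and 10.88 in brain lines. In both genes the brain lines lay below all others. Gsr, glutathione reductase, differed by -0.23 ± 0.06 and the phosphate carrier Slc20a2 by -0.18 ± 0.08, while Agpat5, an acyltransferase of phospholipid synthesis, differed by 0.08 ± 0.12. The 9 cell death and innate immunity members included 7 above background, all below 0, with a median of -0.21. Cdkn2aip, a regulator of p53, differed by -0.46 ± 0.13, Fnta, a subunit of protein farnesyltransferase, by -0.31 ± 0.08, Bag4, a co-chaperone, by -0.21 ± 0.08 and Tlr3, a receptor for double-stranded RNA, by -0.16 ± 0.12. The chemokine Ccl25 differed by -0.45 ± 0.17, at 6.10, 6.63 and 6.26 in primary and 6.08, 5.86 and 5.71 in brain lines, which did not overlap by a narrow margin. Its other probe set, at a mean level of 5.85, differed by only -0.20.

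Beside 1.57% of all genes called lower and 1.56% called higher, the 8 lists had, by limma, 4 of 17 receptors and signalling genes lower in brain than primary lines, 4 of 19 matrix genes, 3 of 13 DNA genes, 5 of 21 chromatin genes, 4 of 15 mitochondrial genes, 7 of 21 lysosome and Golgi genes, 6 of 12 cell cycle genes and 0 of 9 cell death genes. None was called higher. The lists were drawn up with the direction of these genes known, so these counts too are descriptions.

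**Figure D4:**
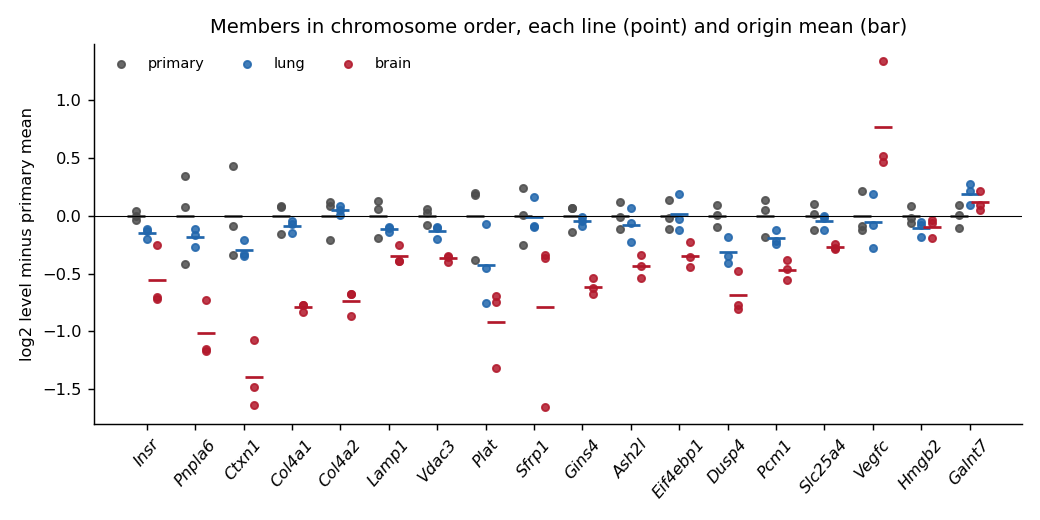
Log2 level minus the primary mean for 18 members in chromosome order, each point 1 line and each bar the mean of an origin (3 lines each). The brain points lie below the primary points in the genes from Insr to Slc25a4 and above them in Vegfc, and the origins overlap in Hmgb2 and Galnt7.

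The tandem families of the stretch were mostly silent in these cells. Of 23 measured defensin genes 3 were above background (Defb46, Defb35 and Defb13), and their median change was 0.03. Of 14 Adam genes, among them sperm surface proteins, Adam3 and Adam9 were above background, and of 7 Cd209 genes, lectins of dendritic cells, Cd209g alone. Members of such families can share probes, and 60 probe sets that name several genes touch the stretch and were not used. Another 12 members had 15 further probe sets on the array, of which 9 were above background. These 9 belonged to Insr, Ccl25, Tfdp1, Vdac3, Rnf170 and Hmgb2, and all had the sign of the probe set used. A further Vdac3 probe set had the same level and change as the one used, 11.06 and -0.36, so its sign adds nothing.

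Neighbouring genes read in opposite directions from close starts did not always differ alike. Such pairs could be found only among the 155 members with promoter windows. Of the 10 found with RefSeq starts within 1000 bases, the collagen pair was the most even among large differences. Lig4, a DNA ligase of end joining, and Abhd13 differed by -0.23 and -0.22. Trappc11, a vesicle tethering subunit, differed by -0.51 and its neighbour Rwdd4a by -0.06. Cul4a, the scaffold of a ubiquitin ligase, differed by -0.36 and Pcid2 by -0.04. Tmco3 differed by -0.35 and Dcun1d2 by -0.02, and Ccl25 by -0.45 (-0.20 by its other probe set) beside Elavl1 at -0.03. Ing2 and AA386476 differed by -0.23 and -0.11, and Fbxo8 and Cep44 by -0.22 and -0.03. In the remaining pairs, Ufsp2 differed by -0.08 and Tubgcp3 by -0.44, and their partners 1700029J07Rik and 4931415C17Rik had means at or below background. No difference within a pair was tested.

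Few increases stood against the trend. Of the 151 members at 6 or more, 15 were not below 0. Gm8096, a predicted gene, had levels of 6.69, 6.29 and 6.50 in primary lines, 6.70, 6.72 and 6.80 in lung lines and 6.79, 6.82 and 6.78 in brain lines, so that lung and brain lines both lay above the primary lines. Mfhas1, a leucine-rich repeat GTPase, differed by 0.27 ± 0.14. Nkx6-3, a homeobox gene with a mean level under 6, differed by 0.26 ± 0.13.

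Against lung lines the members were lower in brain lines by nearly as much. The median from lung to brain lines was -0.22 over the 151 members at 6 or more, with 132 below 0, against -0.04 over the rest of chromosome 8. Of all genes at that level 47.4% were below 0. The brain lines enter both comparisons, so these are not 2 independent observations.

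Between lung and primary lines, the comparison without the brain lines, no member passed the test. The primary lines also enter the brain comparison on which the stretch was picked, so this test is not fully free of that choice. The median over the 151 members at 6 or more was -0.04, with 113 (74.8%) below 0. It was -0.04 over the 395 genes of the rest of the chromosome (63.0% below 0) and 0.00 over all genes at that level (48.6% below 0). By limma, 0 members were called lower (0.0% of all genes) and 0 higher (0.0%), and the smallest adjusted p was 0.975. At an unadjusted p under 0.05 there were 14 members (4.47%), 9 of them lower in lung lines, beside 4.74% of all genes. All 3 lung lines lay below all primary lines in 21 members (6.71%, beside 3.84% of all genes) and above them in 10 (3.19%, beside 4.88%). At a level of 6 or more they lay below in 21 members (13.9%), beside 10.6% of the rest of the chromosome and 6.22% of all genes. There they lay above in 5 members (3.31%), beside 3.29% and 6.42%.

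The 5 members with the smallest p are given as values that did not pass. Gpat4, an enzyme of triglyceride synthesis, had levels of 9.86, 9.84 and 9.91 in primary lines and 9.58, 9.68 and 9.67 in lung lines, a difference of -0.22 ± 0.07 with no overlap. Fat1 differed by -0.26 ± 0.08, Dusp4 by -0.31 ± 0.10 and Aga by -0.20 ± 0.07, and in each the lung lines lay below the primary lines. Tnfsf13b, the B-cell survival factor BAFF, was dim, at 4.29, 4.63 and 4.47 in primary and 4.69, 4.78 and 4.82 in lung lines, a difference of 0.30 ± 0.09. The unadjusted p in limma was 0.00881 for Gpat4, 0.0102 for Tnfsf13b, 0.0113 for Fat1, 0.0131 for Dusp4 and 0.0206 for Aga, each with an adjusted p of 0.975. In Gpat4, Fat1 and Dusp4 the brain lines were lower still, with means of 9.52, 8.12 and 8.88, while the brain mean of Aga equalled the primary mean at 9.22.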

How the data were processed

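RNA of 9 cultured 4T1 lines, 3 per origin, was measured on 1 array each, so precision is limited by how few arrays there are. The authors deposited log2 intensities. Per the submitters' processing notes these come from RMA, which corrects background, quantile-normalizes arrays and summarises probe sets. The log base was taken from the range of the values. The RMA version is not given in the sources used here, nor is a build. Of 35557 probe sets, 21789 had exactly 1 symbol in the platform annotation, 1621 several and 12147 none. Genes were named from the first kind, by the probe set with the highest mean over 9 arrays, which gave 19938 genes. The RefSeq table of GRCm38.p6 gave their order.

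Each gene was fitted with limma 3.58.1 (R 4.3.3; lmFit and eBayes, two-sided), using the 9 arrays together and 3 origin coefficients, which leaves 6 residual and 3.72 prior degrees of freedom. Called means a p under 0.05 after Benjamini-Hochberg adjustment over the 19938 genes. The p-values measure only the spread between these lines. Where ± is not marked SD it gives the model's standard error. The procedure was tested on simulated data. Tables were made with Python 3.11.15 and pandas 2.3.3.

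The members and gene lists were chosen with earlier results of these data known. Genes were named by rule: the 3 at each end and the nearest outside, up to 5 per list with the highest mean, the 10 largest decreases and 5 largest increases in brain lines with all means above background, the 5 smallest p between lung and primary lines, head-to-head pairs and the 4 largest changes among basement membrane genes. Genes marked in the text as noticed or singled out later, Cldn23, the promoters printed and the level tiers were chosen after the values had been seen.

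Lines of different origins share mouse numbers, although the mice differ. Deviations of same-numbered lines from their origin means correlated across genes at 0.284, 0.130 and 0.241 between lung and brain lines, at 0.221, 0.0785 and 0.008 between primary and lung lines, and at 0.0666, -7e-04 and -0.0442 between primary and brain lines. Only lung and brain lines met the rule that every correlation exceed 0.1. That is a likeness in the data alone and does not make them pairs from a common mouse. A fit with the number as a block was therefore an alternative and not the main model. The others were quantile normalization again, centring arrays on their medians, leaving out the 6646 dimmest genes, array weights, a robust prior with an intensity trend, leaving out each line, other handling of probe sets, only the 6 arrays compared, and an adjusted p under 0.01.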

Additional observations from a re-analysis of the deposited data

How the results depend on the processing

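With the replicate block, members called lower in brain lines numbered 48 against primary lines (45 in the model as reported) and 31 against lung lines (27), and 0 members remained called between lung and primary lines. Quantile normalization again gave 61 and 38, and array weights also gave 61 and 38. Leaving out the dimmest genes gave 58 and 34, and a robust prior with an intensity trend 48 and 29. Other alternatives lowered the counts. Centring each array on its median gave 24 and 13, testing every probe set 15 and 6, a fit limited to the 6 arrays of each comparison 9 and 8, and an adjusted p under 0.01 gave 10 and 5. Leaving out a line gave 15 to 39 and 5 to 27. No alternative called a member higher in brain lines, or different between lung and primary lines.

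Centring moved the median of all genes from 0.0049 to 0.0703 between brain and primary lines. The median of all members there went from -0.0635 to 0.0020 with centring, -0.2145 without the 6646 dimmest genes and -0.1735 above background (an alternative chosen after seeing the data), and lay between -0.0853 and -0.0635 without a line. That of the rest of chromosome 8 went from -0.0331 to 0.0324, -0.0462 and -0.0442, with -0.0450 to -0.0299 without a line. Between brain and lung lines the members' -0.0912 became -0.0157 with centring, -0.0732 with quantile normalization, -0.1650 without the dimmest genes and -0.1480 above background (-0.1057 to -0.0795 without a line), and the rest's -0.0402 became 0.0353 with centring (-0.0527 to -0.0276 without a line). Between lung and primary lines the members' -0.0128 became -0.0294 without the dimmest genes (-0.0240 to -0.0007 without a line), and the rest's -0.0105 became -0.0215 with quantile normalization (-0.0147 to 0.0034 without a line, the highest without lung line 3). The causes were not tested. Of 1048 values for 75 single genes, 1040 moved by less than the spread between lines (1 SD), 8 moved by more, all with centring, and 0 reversed.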
